A study of Homo sapiens with 6 samples.

Results

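The genes described are those of the mitochondrial ribosome whose symbol begins with MRPL (large subunit) or MRPS (small subunit) followed by a digit in the probe-to-gene table of the array. Each was read from its brightest probe set with a single symbol, as the mean over 6 arrays, which gave 75 genes of 18132 measured in all. They comprised 47 MRPL genes, 27 MRPS genes and MRPL20-AS1, a non-coding antisense gene that meets the rule by its name and was counted apart from the protein genes. MRPL24 was chosen by its measured difference between PRMT5_down and control, so that difference, and the same difference of the other members, is given as a description. Counts from the fit over all genes are printed for it, and nothing is read from them.

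The study measured NCI-H929, a human multiple myeloma cell line, on Affymetrix arrays, 3 per group. In the PRMT5_down group a lentivirus was used to reduce PRMT5, an enzyme that places symmetric dimethyl marks on arginine, and the control group received a control lentivirus. The titles call the constructs sponges, while the treatment protocol names a short hairpin RNA in pLKO.1, packaged in 293T cells, selection with puromycin, and a comparison population of normal NCI-H929. The labels do not say whether either population is 1 clone, nor whether each replicate had its own culture. The p-values therefore reflect array-to-array spread alone, and that spread may be technical. The cells were collected at one time, and the stated question was which genes PRMT5 may target.

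Mitochondria carry their own ribosome, which translates the few messages of mitochondrial DNA, all of them for subunits of the respiratory chain and ATP synthase. Its RNA is made inside the organelle, but all of its proteins are encoded in the nucleus, made in the cytosol and imported. Some descend from bacterial ribosomal proteins and others joined the ribosome only in mitochondria. MRPL24 has a bacterial counterpart that binds the large ribosomal RNA early in assembly and lies beside the exit of the peptide tunnel.

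PRMT5 itself had log2 signals of 8.63, 9.65 and 9.37 in PRMT5_down replicates 1, 2 and 3, against 9.93, 10.35 and 10.30 in control replicates 1, 2 and 3. All 3 PRMT5_down values lay below all 3 controls (two-sided exact permutation p = 0.1, which is the minimum for groups of 3 arrays). That permutation took no account of the replicate number, which pairs the arrays on the basis given with the processing. The label of the cells was met by few of the plasma cell markers. Of 10 such markers 3 were above background on all 6 arrays, XBP1, PRDM1 and SDC1, and 6 were above it on none, IRF4, CD38 and TNFRSF17 among them. As a measure of background, 333 olfactory receptor genes were taken, and their 95th percentile ranged from 4.89 to 5.01 by array. All 7 measured erythroid markers, among them GATA1, KLF1 and ALAS2, were above it on all 6 arrays. Their lowest value was 5.39, for AHSP in control replicate 3. Of the 3 plasma cell markers above background, SDC1 (4.99 to 5.47) and PRDM1 (5.65 to 5.86) lay close to it. XBP1 lay well above it, at 10.02 to 10.88.

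MRPL24, read from the only probe set with its symbol alone, was lower in every PRMT5_down array than in any control array. Its log2 signal was 8.79, 9.29 and 8.87 in PRMT5_down replicates 1, 2 and 3, and 9.56, 9.82 and 9.75 in control replicates 1, 2 and 3. The means were 8.98 ± 0.27 in PRMT5_down and 9.71 ± 0.13 in control (SD, n = 3 each). PRMT5_down minus control was thus -0.73 on the log2 scale (SE 0.16). Unless stated, each SE is from the fit without the replicate number as a term, so spread between the numbers enters it. With that term the SE of MRPL24 was 0.09. Within replicate numbers 1, 2 and 3 the difference was -0.77, -0.53 and -0.88, so that MRPL24 stood at 58.6%, 69.3% and 54.3% of its control. Of all 18132 genes, 4 had a mean difference as low as this or lower (0.0221%), with PRMT5 the lowest at -0.98 (SE 0.28). Among genes above background on all 6 arrays the share was 0.0294%. In bulk RNA, fewer cells of a type and less RNA per cell cannot be told apart.

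MRPS27 was the only other member whose groups did not overlap. It encodes a pentatricopeptide repeat protein of the small subunit that binds RNA and has no bacterial counterpart. Its log2 signal was 7.95, 8.29 and 8.45 in PRMT5_down replicates 1, 2 and 3, and 8.74, 8.60 and 8.75 in control replicates 1, 2 and 3. The mean difference was -0.47 (SE 0.14), and it was uneven, at -0.79, -0.31 and -0.30 in numbers 1, 2 and 3. Without PRMT5_down replicate 1 it was -0.33. Over all genes, 40 had a difference at or below that of MRPS27 (0.221%), and the share was 0.323% among genes above background on all 6 arrays.

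**Figure D1:**
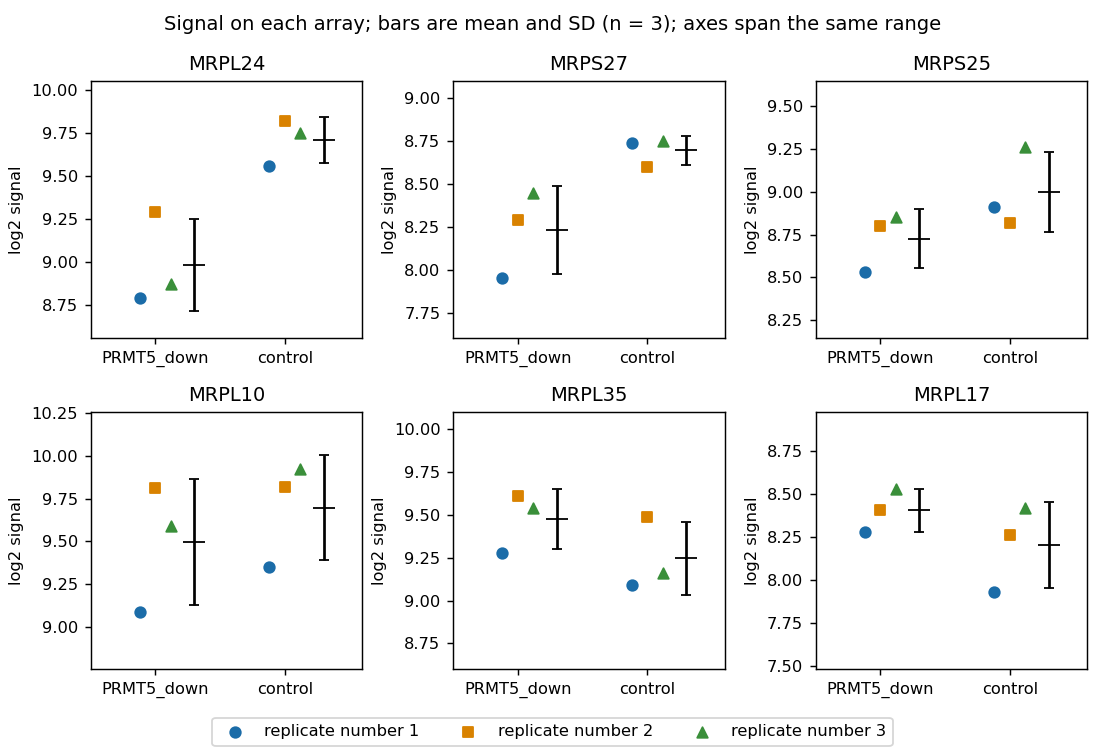
Log2 signal (vertical axis) of 6 mitochondrial ribosomal protein genes on each array, PRMT5_down on the left and control on the right of each panel, with points by replicate number and bars for mean and SD (n = 3). MRPL24 and MRPS27 lie lower in all 3 PRMT5_down arrays than in any control array, while for MRPS25, MRPL10, MRPL35 and MRPL17 the groups overlap.

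The promoters of these members are shown because they are the 2 genes that stood apart from the family. Each line gives the 250 bases before the start of the gene from RefSeq (GRCh38.p14), 5′ to 3′ on the gene's own strand. MRPL24 lies at chr1:156741089-156741338 and MRPS27 at chr5:72320241-72320490, both on the minus strand. Capitals mark the motif of the transcription factor ZNF143, and MRPS27 holds none of the 4 motifs searched.
MRPL24: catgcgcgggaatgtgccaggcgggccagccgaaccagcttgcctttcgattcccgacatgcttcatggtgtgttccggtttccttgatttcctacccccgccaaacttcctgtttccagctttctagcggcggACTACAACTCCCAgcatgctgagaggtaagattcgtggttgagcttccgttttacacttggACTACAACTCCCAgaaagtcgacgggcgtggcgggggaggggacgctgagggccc
MRPS27: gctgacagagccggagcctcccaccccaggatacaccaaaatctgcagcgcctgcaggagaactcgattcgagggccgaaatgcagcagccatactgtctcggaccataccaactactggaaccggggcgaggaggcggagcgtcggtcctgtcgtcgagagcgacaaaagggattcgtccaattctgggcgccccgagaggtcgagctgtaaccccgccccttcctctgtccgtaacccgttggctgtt

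The motifs were searched on both strands in the whole RefSeq window, which ends 50 bases after the start and was found for 68 of the 75 members. The ZNF143 motif was chosen after the sequence of MRPL24 had been seen. It occurred in 6 of 68 member promoters (8.82%), against 1.49% of 27305 promoters of the same length, and MRPL24 was the only member with 2 copies. The other members with it were MRPL19, MRPL42, MRPL50, MRPS22 and MRPS26, whose differences lay between -0.05 and 0.19. The motif of the ETS family, CCGGAAG, was found in 29 member promoters (42.6%), against 10.7% of all, and that of YY1, AAGATGGCG, in 12 (17.6%), against 1.85%. The NRF1 motif stood in 8 (11.8%), against 6.28%. Among promoters of genes on the array the shares were 2.25% for ZNF143, 14.6% for ETS, 2.86% for YY1 and 8.92% for NRF1. The median difference between PRMT5_down and control was -0.03 for members with the ZNF143 motif and -0.02 for those without it. With and without the motif it was -0.03 and -0.01 for ETS, 0.035 and -0.04 for YY1, and 0.03 and -0.03 for NRF1.

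The genes beside MRPL24 and MRPS27 on their chromosomes, by the order of genes in RefSeq, had small differences. HDGF and METTL25B, the neighbours of MRPL24 on chromosome 1, differed by 0.09 (SE 0.21) and -0.03 (SE 0.14). Beside MRPS27 on chromosome 5, MAP1B differed by 0.07 (SE 0.17) and PTCD2, a factor of mitochondrial RNA processing, by -0.10 (SE 0.17). The neighbours of MRPS27 were added after its value was seen.

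Apart from MRPL24 and MRPS27, the family was nearly level between the groups. The other 73 members had mean differences from -0.27 to 0.23, of which 40 were below 0 and 33 above, and their median was -0.02. Over all 75 the median was -0.03 with 42 lower and 33 higher. Over all genes it was -0.02 with 10057 lower and 7844 higher. Over the 10215 genes above background on all 6 arrays it was 0.003 with 5001 lower and 5116 higher. The SD of the differences was 0.14 over all 75 members and 0.11 over the members other than MRPL24. It was 0.15 over all genes above background on all 6 arrays, with none left out. All 75 members were above background on all 6 arrays, with log2 signals between 7.02 and 11.42. At the 99th percentile of the olfactory receptor genes 74 remained above it.

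No member passed the fit over all genes (0 of 75 by limma at an adjusted p under 0.05, beside 0% of all genes). Since MRPL24 was chosen on this difference, the counts that follow are no support for it. Below an unadjusted limma p of 0.05 were 2 members, MRPL24 and MRPS27 (2.67%), beside 0.822% of all genes. Both were lower in PRMT5_down, as were 0.491% of all genes at that level. With the replicate number as a block, limma also called none, and 5 members had an unadjusted p under 0.05 (6.67%), beside 8.25% of all genes. Those were MRPL24, MRPS27 and MRPS25 on the lower side and MRPL35 and MRPL17 on the higher. The groups did not overlap for 2 members (2.67%), beside 3.92% of all genes, and both were lower, beside 2.66% of all genes. Of the 10215 genes above background on all 6 arrays, the groups did not overlap for 134 on the lower side and 125 on the higher. Among those genes 73 had an unadjusted limma p under 0.05 without the block and 1059 with it.

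PRMT5_down was lower in numbers 1, 2 and 3 alike for 8 members (10.7%), beside 15.2% of all genes. It was higher in all 3 for 12 members (16%), beside 11.7% of all genes. Of the 10215 genes above background on all 6 arrays, as all members were, 1400 were lower and 1593 higher in all 3. The median of the family was -0.02, 0.02 and -0.04 in numbers 1, 2 and 3. MRPL24 was the lowest of the 75 in numbers 2 and 3. In number 1 it was second to MRPS27, and the next lowest, MRPL57, MRPS2 and MRPS25, were each at -0.38. In number 3 the next lowest was MRPL40 at -0.44, and MRPL40 was at 0.27 in number 1.

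**Figure D2:**
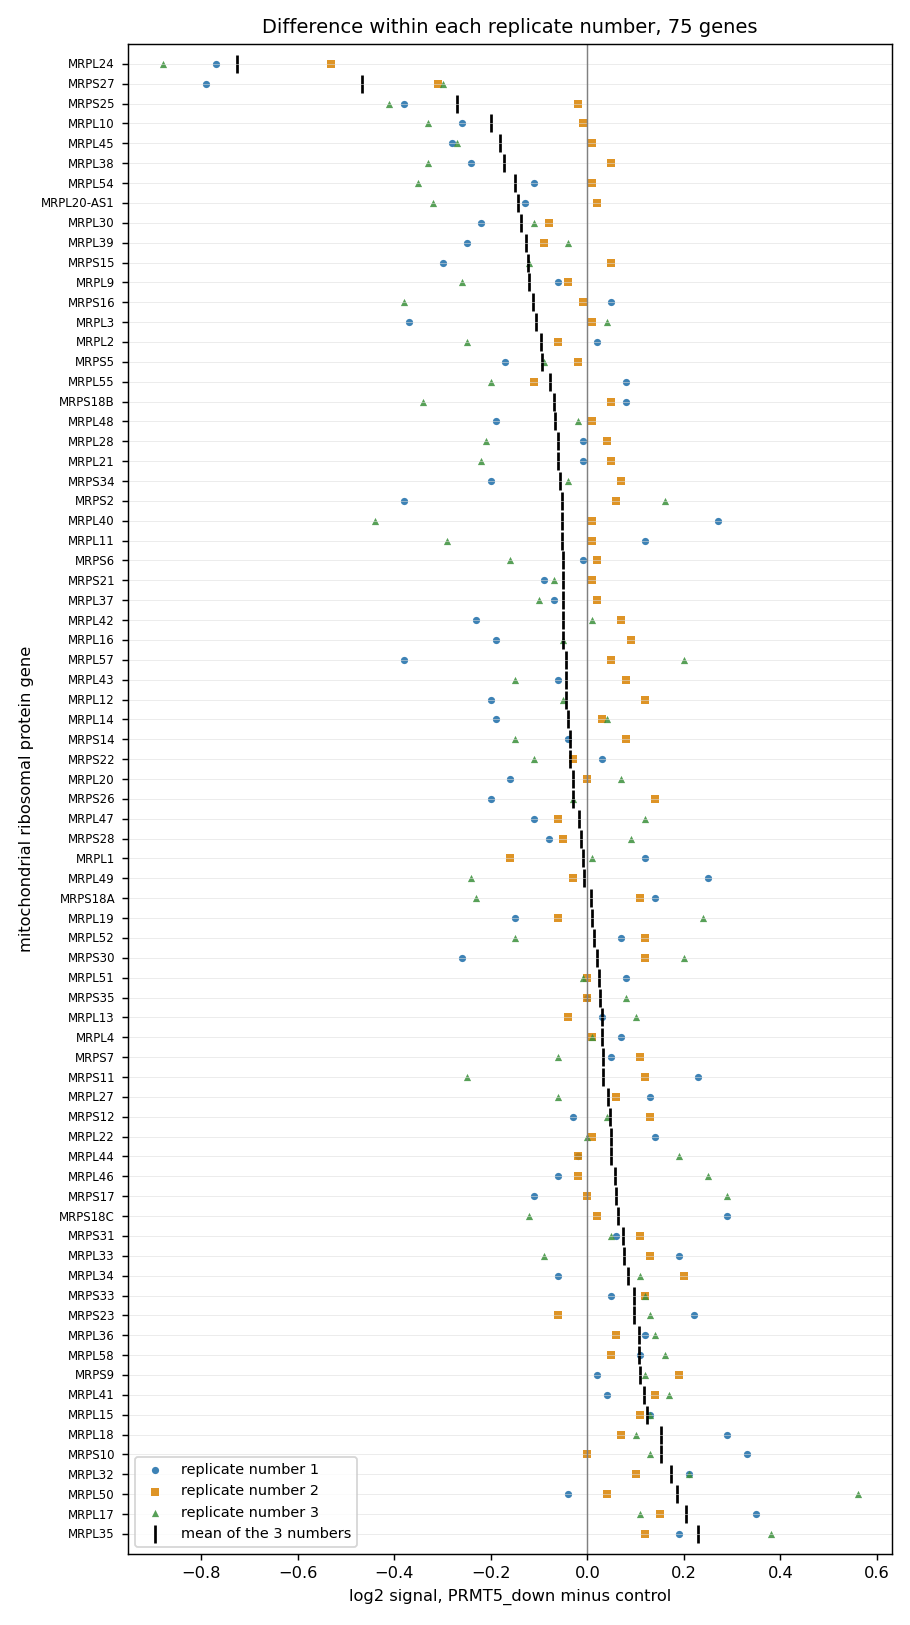
Difference in log2 signal, PRMT5_down minus control (horizontal axis), for each of the 75 genes (vertical axis), within replicate numbers 1, 2 and 3 (points) and as their mean (black bar). MRPL24 and MRPS27 lead the lower end with means of -0.73 and -0.47, and the other 73 means lie between -0.27 and 0.23.

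Among proteins that line the peptide exit of the large subunit, only MRPL24 had a large difference. Of 7 measured, 4 were lower and 3 higher, with a median of -0.02. MRPL45, which anchors the ribosome to the inner membrane, differed by -0.18 (SE 0.12), with 8.87, 9.25 and 8.89 in PRMT5_down replicates 1, 2 and 3 and 9.15, 9.24 and 9.16 in control replicates 1, 2 and 3. Its groups overlapped, since replicate 2 of PRMT5_down lay above all controls. MRPL39 differed by -0.13 (SE 0.25), MRPL47 by -0.02 (SE 0.18), MRPL22 by 0.05 (SE 0.19) and MRPL44 by 0.05 (SE 0.09). MRPL17 stood at the other end of the family, with a difference of 0.20 (SE 0.15) and values of 0.35, 0.15 and 0.11 in numbers 1, 2 and 3. MRPL23, another protein of the exit, is no member because its probe set carries its symbol more than once, and that probe set differed by -0.12.

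The stalk of the large subunit, which recruits translation factors, showed the same narrow range. MRPL10, its base, differed by -0.20 (SE 0.24), MRPL11 by -0.05 (SE 0.11) and MRPL12, the protein of its mobile arm, by -0.04 (SE 0.23). MRPL10 had 9.09, 9.81 and 9.59 in PRMT5_down replicates 1, 2 and 3, against 9.35, 9.82 and 9.92 in control replicates 1, 2 and 3, so that replicate 2 was alike in both groups. Probe sets of MRPL53, a further stalk protein, are shared with CCDC142 and differed by -0.17 and 0.12.

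Elsewhere in the large subunit the ends of the range were held by MRPL38 at -0.17 (SE 0.38) and by MRPL35 at 0.23 (SE 0.15). With the replicate number as a block their SEs were 0.097 and 0.087. MRPL38 is a protein of the central protuberance, and MRPL35 has a bacterial counterpart. MRPL35 had 9.28, 9.61 and 9.54 in PRMT5_down replicates 1, 2 and 3, against 9.09, 9.49 and 9.16 in control replicates 1, 2 and 3. It was higher within each number, but its groups overlapped. MRPL32, whose precursor is cut by the inner-membrane m-AAA protease, differed by 0.17 (SE 0.21), MRPL18 by 0.15 (SE 0.17) and MRPL50 by 0.19 (SE 0.23). For MRPL50 the numbers gave -0.04, 0.04 and 0.56, and the low value was that of control replicate 3, at 7.28. MRPS30 and MRPS18A, which by structure belong to the large subunit in spite of their symbols, differed by 0.02 and 0.01.

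In the small subunit MRPS25, which is found only in mitochondrial ribosomes, followed MRPS27. It had 8.53, 8.80 and 8.85 in PRMT5_down replicates 1, 2 and 3 and 8.91, 8.82 and 9.26 in control replicates 1, 2 and 3. The difference was -0.27 (SE 0.15), made by numbers 1 and 3 at -0.38 and -0.41, while number 2 was at -0.02. With its most variable probe set in place of the brightest, MRPS25 stood at 0.08. MRPS10, the counterpart of a bacterial head protein, was the highest of the small subunit at 0.15 (SE 0.26). The median was -0.03 over the 47 MRPL genes and -0.01 over the 27 MRPS genes. The 46 members with a bacterial counterpart had a median of -0.02 and the 28 without one -0.03. The antisense gene MRPL20-AS1 differed by -0.14.

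Agreement between probe sets differed from gene to gene. The 4 probe sets of MRPS27 gave -0.47, -0.41, -0.37 and -0.39, all lower in numbers 1, 2 and 3. In number 2 they gave -0.31, -0.25, -0.10 and -0.04. Probe sets of 1 gene read the same RNA on the same arrays and are no replicates. MRPL45 also kept its sign in 3 probe sets, from -0.22 to -0.18, though 2 of them held identical values and so count as 1. Of 166 probe sets of the family, 5 differed by -0.3 or less, and all 5 belonged to MRPL24 and MRPS27. On the other side 1 differed by 0.3 or more, a dim probe set of MRPS5 at 0.31. Of 47 members with several probe sets, 18 were lower in all of them, 9 were higher in all, and in 20 the probe sets differed in sign. The widest such gap was in MRPL20, from -0.26 to 0.28, where the highest came from a probe set at a mean signal of 5.15. For 28 members, MRPL24 among them, there was 1 probe set and no such check.

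**Figure D3:**
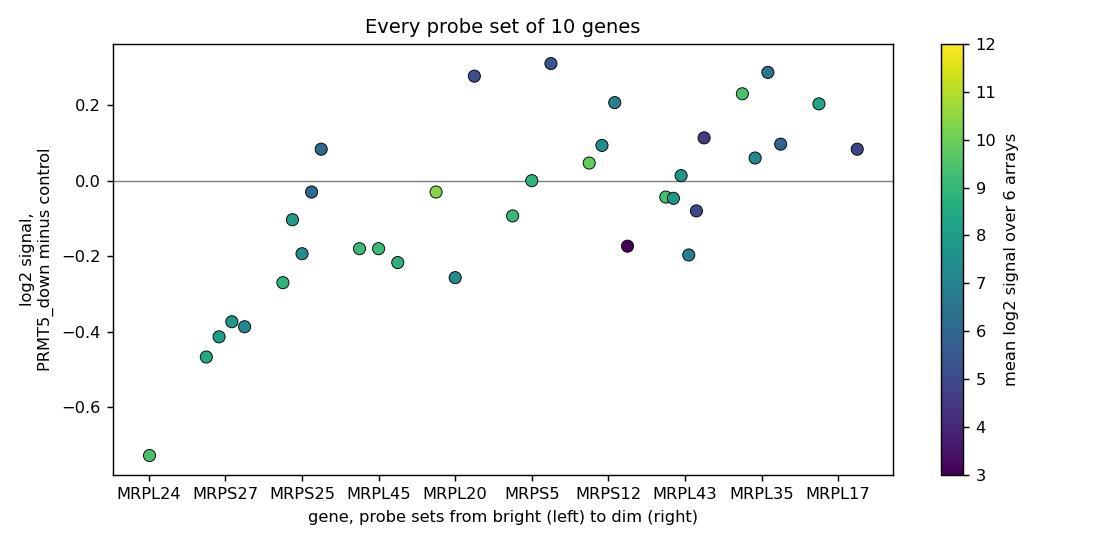
Difference in log2 signal, PRMT5_down minus control (vertical axis), of every single-symbol probe set of 10 members (horizontal axis), coloured by mean log2 signal over 6 arrays. The 4 probe sets of MRPS27 lie together between -0.47 and -0.37, those of MRPL20 and MRPS5 spread to both sides of 0, and MRPL24 has 1.

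The signals of most members differed between the replicate numbers, a contrast that played no part in the choice of members. A limma F test of the replicate number, with the group as a term and Benjamini-Hochberg adjustment over all genes, called 43 of 75 members (57.3%), beside 35.1% of all genes and 54.8% of genes above background on all 6 arrays. The share was thus close to that of other well measured genes. The range between the means of the 3 numbers had a median of 0.41 over the members, against a median size of the group difference of 0.06. Over all genes those medians were 0.28 and 0.08.

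MRPS12, a protein of the decoding centre, had the smallest p between numbers (limma F adjusted p = 0.00083). It had 9.33, 9.78 and 10.50 in PRMT5_down replicates 1, 2 and 3 and 9.36, 9.65 and 10.46 in control replicates 1, 2 and 3, the same order in both groups. MRPS2 followed (limma F adjusted p = 0.0011), with 8.87, 9.34 and 10.48 in PRMT5_down and 9.25, 9.28 and 10.32 in control replicates 1, 2 and 3. MRPL38 (limma F adjusted p = 0.0015) and MRPL46 (limma F adjusted p = 0.0015) were also lowest in number 1 and highest in number 3. Of the 43 called members, 23 were lowest in number 1, 5 in number 2 and 15 in number 3. Of the 6357 genes called over all, 2345, 1519 and 2493 were lowest in numbers 1, 2 and 3.

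The range between numbers exceeded the group difference for 73 of 75 members (97.3%), beside 89.3% of all genes. The 2 exceptions were MRPL24, with a range of 0.38 between numbers and a group difference of 0.73 in size, and MRPS27, with 0.26 and 0.47. Neither was called between numbers (limma F adjusted p = 0.077 for MRPL24 and 0.38 for MRPS27). MRPL24 was chosen by its group difference, so its place among the exceptions follows from that choice and is given as a description. The range is taken over the means of all numbers, each of fewer arrays than a group mean. It can therefore exceed the group difference through spread alone, and nothing is read from the shares.

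**Figure D4:**
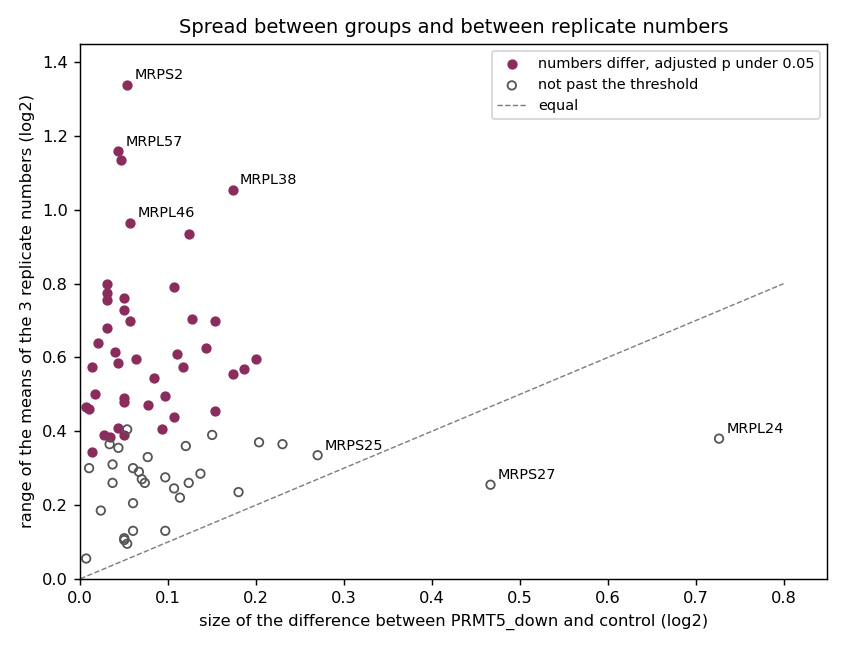
Range of the means of the 3 replicate numbers (vertical axis, log2) against the size of the difference between PRMT5_down and control (horizontal axis, log2) for the 75 members, filled where the limma F test between numbers passed. MRPL24 and MRPS27 are the 2 genes under the line of equality, and MRPS2 has the widest range between numbers, at 1.34. MRPL24 was chosen by its group difference.

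Over the 6 arrays, the members whose signals ran most like those of MRPL24 were MRPL45 (Pearson r = 0.85), MRPS27 (r = 0.80) and MRPL9 (r = 0.71). Of all genes, ADGRB3, KCNH1, CRACD, CD70 and SLC71A2 were most like it, with r from 0.976 to 0.999, and the first 3 of these were above background on no array. These 6 arrays hold both groups, so a shared difference between groups enters each r, and the values only describe the pattern.

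Genes that act around the mitochondrial ribosome gave no called difference either. Of 27 measured assembly factors 13 were lower and 13 higher, with a median of 0.00 and 0 called by limma. The pseudouridine synthase gene RPUSD4 differed by -0.31 (SE 0.21), the ribosomal RNA methyltransferase gene NSUN4 by -0.19 (SE 0.12), MRM2 by 0.15 (SE 0.10) and RBFA by -0.12 (SE 0.10). Of 13 translation factors 9 were higher, with a median of 0.07 and 0 called, among them the elongation factor gene GFM1 at 0.16 (SE 0.14) and the release factor gene MTRF1 at 0.34 (SE 0.33). Of 15 genes of mitochondrial transcription and message stability 11 were higher, with a median of 0.11 and 0 called. Their median was 0, 0 and 0.29 in numbers 1, 2 and 3, and 7, 7 and 1 of them were lower there. TFAM, which packs mitochondrial DNA and starts its transcription, differed by 0.28 (SE 0.26) and TFB2M by 0.21 (SE 0.28). An unadjusted limma p under 0.05 was reached by 0 genes of each list, beside 0.822% of all genes. With the replicate block these were 2 assembly factors, 0 translation factors and 1 gene of transcription and message stability. Of all genes, 8.25% reached that level with the block. Of 5 measured ribosome genes under other symbols, DAP3 was at -0.01 and the other 4, of which MRPL58 is also a member, between 0.04 and 0.11.

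Markers of 2 cell types were read beside these differences. All 7 erythroid markers were higher in PRMT5_down, by 0.14 to 1.58, and their summed signal was 12.78 to 13.09 in PRMT5_down and 12.45 to 12.71 in control (log2). All 10 plasma cell markers were lower, by 0.01 to 0.24 in size, but 6 of them were above background on no array. Their summed signal was 10.25 to 11.0 in PRMT5_down and 10.48 to 10.75 in control (log2). XBP1, by far the brightest of them, differed by 0.36, -0.27 and -0.26 in numbers 1, 2 and 3. In all 3 numbers alike, 1 plasma cell marker was lower and 6 erythroid markers were higher. Limma called 0 markers of either list with or without the replicate block, and 2 erythroid and 0 plasma cell markers had an unadjusted p under 0.05 without it (0.822% of all genes). With the block these were 5 of 7 erythroid and 1 of 10 plasma cell markers (8.25% of all genes). Their part in the differences of MRPL24 and MRPS27 was not tested.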

How the data were processed

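The authors used RMA, per the submitters' processing notes, and deposited log2 signals of 49372 probe sets on 6 arrays to 2 decimals. Its version was not given in the sources used here. Because RMA makes array distributions alike, it removes a shift common to most genes. Columns were used as deposited, with no filter on dim genes. Symbols came from the platform annotation.

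The groups were compared by limma 3.58.1 (R 4.3.3), with p-values adjusted over 18132 genes by Benjamini-Hochberg and a threshold of 0.05. The fits were tested on simulated data in which few genes differed between the replicate numbers. Of all genes here 35.1% were called between numbers. That test therefore does not cover the fit without the block under such spread. The number of arrays limits the precision. For replicate numbers 1, 2 and 3, deviations from the group means had r = 0.82, 0.72 and 0.79 between the PRMT5_down and control array. All exceed the minimum of 0.1, and on this basis from the data, not the labels, the numbers pair the arrays. Array-wide medians lay between 5.29 and 5.32.

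The members and gene lists were chosen with earlier results of these data known. Named genes were PRMT5, MRPL24 and its chromosome neighbours, the 6 members at each end, and members with no overlap or an unadjusted p under 0.05. Also named were the 4 members with the smallest p between numbers and those of the exit and stalk. Up to 4 genes of each other list and those most like MRPL24 were named as well. Others named (such as MRPL40, MRPL20, MRPS5, MRPS30, MRPS18A and the markers) were chosen after their values were seen. Alternatives changed the normalization, the filter, the choice of probe set, the variance model and the weights, added the block, or left out arrays.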

Additional observations from a re-analysis of the deposited data

How the results depend on the processing

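MRPL24 and MRPS27 were lower under all 22 other settings run, MRPL24 between -0.88 and -0.59 and MRPS27 between -0.58 and -0.305. Most of these settings could not have turned the sign. The filters, the variance model and the block leave a mean difference as it is. Since the groups did not overlap for either gene, array weights or leaving out arrays could not turn it. MRPL24 was also chosen by this difference, so nothing is read from the kept sign. With 1 array left out in turn, MRPL24 ranged from -0.88 to -0.63. The median of the members, -0.03 as planned, was 0.026 with array weights, 0.010 without pair 1 with or without the replicate block, and -0.057 to 0.027 with 1 array left out (above 0 without PRMT5_down replicate 1, control replicate 2 or control replicate 3); the cause was not tested. No setting called a member. The replicate block called 0 genes, and combined with trend and robust or with the lowest 50% left out, it called 3 genes each, of which PRMT5 was 1 (limma adjusted p = 0.029 and 0.039). These 2 combinations and the settings without a pair were chosen after seeing the data. The block changed no other call. The count of genes with an unadjusted limma p under 0.05 was 149 in the planned fit and 1495 under the replicate block. It fell to 57 and 23 where filters removed the lowest 30% or 50% of genes, was 230 by trend and robust, and spanned 92 to 285 with 1 array left out, 70 without pair 1, and 429 to 1734 over the other block settings. Members at that level numbered 2 as planned, 5 with the replicate block, 7 with the block and without pair 2, 4 with each combined setting, and 1 to 3 with 1 array left out (1 without control replicate 1 or 3). Members called between numbers ranged from 43 to 46. Of the 19 named members besides MRPL24 and MRPS27, 15 changed sign under some setting, MRPS25 to 0.08 with its most variable probe set.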
